A study of Homo sapiens with 12 samples.

Results

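The collagen genes were followed in U2OS, an established line from a human osteosarcoma whose own p53 is wild-type. Every gene whose symbol in the platform's probe annotation reads COL, a number, A and a number was taken, and antisense genes and pseudogenes were left out. The rule gave 43 collagen genes among the 19775 genes that had a probe set paired with that gene alone. They comprised 11 fibrillar collagens, 6 basement membrane collagens and 26 others. For a gene with several probe sets, the one whose mean of log2(signal + 16) over all 12 arrays was highest stood for it. The choice used no contrast between groups, but treated arrays counted in the mean, so a response could still affect it. COL17A1 was not analysed here.

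Transcripts had been measured on Affymetrix Human Genome U133 Plus 2.0 arrays in 4 groups of 3 arrays, after 24 hours. Doxorubicin, which breaks DNA by trapping topoisomerase II, was given at 0.6 µg/ml and compared with untreated cells. Nutlin-3, which frees p53 from the ubiquitin ligase MDM2 without breaking DNA, was given at 10 µM and compared with its solvent, 0.1% DMSO. All groups were the same line with its own p53, and the design sets a DNA-damaging activator of p53 beside one that leaves DNA intact. Nothing in the labels ties the replicates to separate cultures. The p-values therefore describe the spread among these arrays alone, and that spread may be technical. With 3 arrays a group, precision is limited throughout.

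Collagens are secreted as triple helices of 3 alpha chains, and each alpha chain has its own gene. Fibrillar collagens assemble into the banded fibrils of bone, skin and cartilage, with type I collagen as the main protein of bone matrix. Type IV collagens form the sheet of the basement membrane, and the remaining types coat fibrils, form beaded filaments, networks and anchoring fibrils, or cross the cell membrane. Bone-forming cells, from whose lineage osteosarcoma arises, are known for type I collagen secretion.

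RefSeq promoter windows of assembly GRCh38.p14, each from 250 bases before to 50 bases after an annotated start, were at hand for 31 of the 43 genes, 43 windows in all. COL4A1 and COL4A2 encode chains that assemble together, and their windows, chr13:110307108-110307407 on the minus strand and chr13:110307034-110307333 on the plus strand, share 226 bases because their start sites lie 127 bases apart and point away from each other. These windows are shown because the responses of this pair to doxorubicin are set side by side below. The windows of COL27A1 at chr9:114155287-114155586 on the plus strand and of COL7A1 at chr3:48595280-48595579 on the minus strand are shown because both genes rose with both agents. Capitals mark the GC box (GGGCGG), the CCAAT box (CCAAT) and the TATA box (TATAAA), each searched on both strands, so that some capitals are the reverse complement of these letters.
COL4A1: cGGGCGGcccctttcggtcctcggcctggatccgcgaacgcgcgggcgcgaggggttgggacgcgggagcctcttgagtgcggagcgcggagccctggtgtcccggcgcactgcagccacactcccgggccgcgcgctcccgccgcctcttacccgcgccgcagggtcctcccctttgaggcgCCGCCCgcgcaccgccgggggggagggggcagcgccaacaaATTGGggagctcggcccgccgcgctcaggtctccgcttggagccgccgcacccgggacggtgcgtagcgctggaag
COL4A2: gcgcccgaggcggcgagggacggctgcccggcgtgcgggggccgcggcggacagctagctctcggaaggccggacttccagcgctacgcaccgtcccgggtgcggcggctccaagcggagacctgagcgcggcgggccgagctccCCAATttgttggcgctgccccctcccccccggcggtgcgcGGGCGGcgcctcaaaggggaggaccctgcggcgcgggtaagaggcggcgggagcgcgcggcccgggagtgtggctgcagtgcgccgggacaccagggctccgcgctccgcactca
COL27A1: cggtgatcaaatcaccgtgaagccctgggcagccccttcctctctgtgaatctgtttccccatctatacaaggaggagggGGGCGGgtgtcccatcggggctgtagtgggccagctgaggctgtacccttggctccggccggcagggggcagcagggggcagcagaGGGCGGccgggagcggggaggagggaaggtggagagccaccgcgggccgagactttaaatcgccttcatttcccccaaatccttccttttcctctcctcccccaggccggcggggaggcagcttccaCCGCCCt
COL7A1: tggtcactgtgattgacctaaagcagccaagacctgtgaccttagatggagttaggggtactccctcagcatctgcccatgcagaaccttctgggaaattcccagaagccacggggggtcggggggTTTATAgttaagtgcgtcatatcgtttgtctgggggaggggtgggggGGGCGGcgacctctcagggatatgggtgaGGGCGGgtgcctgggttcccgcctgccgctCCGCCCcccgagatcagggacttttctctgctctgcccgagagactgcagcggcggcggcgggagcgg
Of these windows only that of COL7A1 holds a TATA box, and each holds at least 1 GC box. The CCAAT box and the GC box nearest to it in the COL4A1 window are the same bases as those marked in the COL4A2 window. Among the 43 collagen windows 24 hold a GC box (55.8%, against 45% of all 35116 windows), 13 a CCAAT box (30.2% against 34.6%) and 7 a TATA box (16.3% against 11.5%). The p53 half-site was found in 0 of the 43 windows and in 6.6% of all windows. COL8A1, COL3A1 and COL5A2 were among the genes with no window, and some windows overlap, as those of COL4A1 and COL4A2 do. These matches describe letters in short windows, and they do not tell whether a gene holds a p53 site elsewhere.

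Arrays of a group were alike, while array medians and 1 sign of RNA quality were less even across groups. The trimmed means lay between 500.06 and 500.07, a value set by the scaling of the arrays, so they cannot compare the groups. The array medians lay between 79.6 and 113.6, with 98.56, 85.55 and 94.69 untreated and 113.6, 112.1 and 96.37 with doxorubicin. They were 88.11, 84.38 and 79.61 in DMSO and 90.06, 84 and 82.87 with nutlin-3. Arrays of a group correlated at 0.9798 to 0.9905. The signal ratio of the 3' to the 5' control probe set of ACTB was 1.53 ± 0.0754 in untreated cells and 3.12 ± 0.577 with doxorubicin (SD, n = 3; exact 2-sided permutation p = 0.1, the smallest that 3 arrays against 3 allow). It was 1.28 ± 0.0281 in DMSO and 1.31 ± 0.0260 with nutlin-3 (exact permutation p = 0.2). The ratio of GAPDH was 1.02 ± 0.0356 untreated and 1.07 ± 0.116 with doxorubicin (exact permutation p = 0.6). The part of the ACTB ratio in the doxorubicin results was not tested. With doxorubicin array 1, whose ratio was lowest at 2.48 but above every untreated array, as the lone treated array, 12 collagens were called higher and 6 lower, with the spread taken from the other groups and the lone array assumed to vary like them. Of 7 osteoblast lineage markers with a single-gene probe set, RUNX2, SPP1 and COL1A1 passed the filter that removes dim probe sets, and SP7, ALPL, IBSP and COL1A2 lay under it. RUNX2 and SPP1 were called lower with doxorubicin, and RUNX2 also with nutlin-3. Of the markers of other cell types, 4 of 4 epithelial, 1 of 3 endothelial (PECAM1) and 1 of 3 leukocyte markers (CD3E) passed. The epithelial markers EPCAM, KRT8, KRT18 and CDH1 summed to 27260 to 28540 in untreated cells, 19650 to 24480 with doxorubicin (EPCAM and KRT18 called lower), 20400 to 21080 in DMSO and 25930 to 27330 with nutlin-3 (KRT8 and KRT18 called higher, EPCAM lower). Their part in the collagen changes was not tested.

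Collagens moved in both directions with each agent. A gene was tested where its mean log2 level passed the 40th percentile of all probe sets (a signal of 49.3), and it was called where limma's moderated test gave a Benjamini-Hochberg adjusted p under 0.05 over all 13673 genes tested. Changes are differences of log2(signal + 16), each with its standard error (SE). Of the 43 collagens, 28 passed the filter, and COL21A1 and COL15A1 passed it only through their doxorubicin arrays. With doxorubicin 13 of these were called higher (46.4%) and 6 lower (21.4%), where 30.1% of all genes tested were called higher and 25.6% lower. With nutlin-3, 7 were called higher (25%) and 6 lower (21.4%), beside 12.5% and 13.9% of all genes. The median collagen change was 0.34 with doxorubicin and 0.12 with nutlin-3, and the medians of all genes were 0.08 and 0.01. In these bulk samples, fewer cells of a kind and less RNA per cell cannot be told apart.

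The split depended on the scaling of the arrays. Centring each array on its median moved the median doxorubicin change of all genes from 0.08 to -0.10 and the share of called genes that were higher from 54% to 38.4%. The collagen split then became 10 higher and 8 lower with doxorubicin and 5 higher and 6 lower with nutlin-3. Quantile normalization gave 12 higher and 7 lower with doxorubicin, and 7 and 6 with nutlin-3. No collagen change called with an agent had its direction turned by either scaling.

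Called changes of the agents overlapped in 10 collagens, which was 52.6% of the 19 called with doxorubicin and 76.9% of the 13 called with nutlin-3. Over all genes tested, the shares were 34.6% and 72.9%. COL27A1, COL4A1, COL4A5, COL13A1, COL6A3 and COL7A1 were higher with both. COL3A1, COL5A2, COL4A4 and COL8A1 were lower with both. No collagen was called in opposite directions by the agents. Over all genes tested, 2635 were called with both, of which 1128 were higher with both and 1013 lower with both. Of the 28 collagens, 6 were called with neither agent, beside 5079 of the 13673 genes tested.

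**Figure D1:**
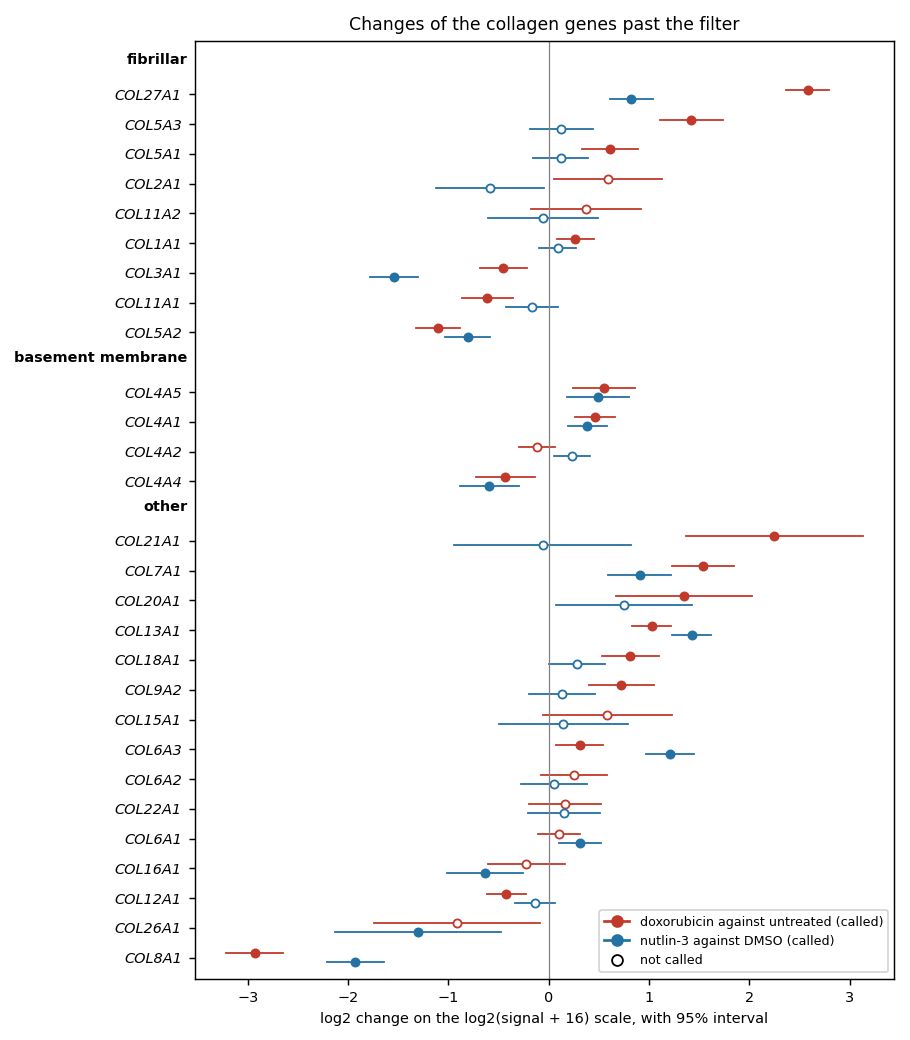
Log2 change of each of the 28 tested collagen genes with doxorubicin against untreated cells (red) and nutlin-3 against DMSO (blue), by class, with 95% intervals of the limma fit; filled points were called. COL27A1 at 2.58 and COL8A1 at -2.93 bound the doxorubicin changes, and COL13A1 at 1.42 and COL8A1 at -1.93 bound those with nutlin-3.

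Among the 9 tested fibrillar collagens, 4 were called higher and 3 lower with doxorubicin (44.4% and 33.3%, beside 30.1% and 25.6% of all genes tested). With nutlin-3, 1 was called higher and 2 lower (11.1% and 22.2%, beside 12.5% and 13.9%). COL27A1, the gene of a fibrillar collagen found in developing cartilage, rose most. Its signal was 1287, 1065 and 1102 in untreated cells and 7778, 6406 and 6705 with doxorubicin. It was 1328, 1227 and 1236 in DMSO and 2483, 2201 and 2065 with nutlin-3. All treated arrays lay above their controls for both agents, and the doxorubicin arrays lay above the nutlin-3 arrays. The rise was 2.58 with doxorubicin (SE 0.10, adjusted p = 3.2e-12), or 5.98-fold, and 0.82 with nutlin-3 (SE 0.10, adjusted p = 9.1e-06).

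COL5A1, COL5A2 and COL5A3 encode the chains of type V collagen, which helps to set the diameter of type I fibrils, and they did not move together. COL5A3 gave 229, 197 and 257 in untreated cells and 639, 701 and 568 with doxorubicin. In DMSO it gave 268, 222 and 239.7, and 317, 235 and 251 with nutlin-3. Doxorubicin arrays stood clear of the untreated ones, while nutlin-3 and DMSO arrays overlapped. COL5A3 thus rose by 1.42 with doxorubicin (SE 0.15, adjusted p = 4e-07) and its change with nutlin-3 was 0.12 (SE 0.15, adjusted p = 0.61; 95% interval -0.19 to 0.44). COL5A1 rose by 0.61 with doxorubicin (SE 0.13, adjusted p = 0.00078), from 3493 ± 357 to 5422 ± 1315 (SD, n = 3), and was not called with nutlin-3 (change 0.12, adjusted p = 0.56). On the brightest of its probe sets named neither _s_at nor _x_at, the COL5A1 change with doxorubicin was 0.15 and was not called. It was 0.24 as the mean of its probe sets and 0.96 with doxorubicin array 1 alone, both called.

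COL5A2 went the other way. Its signal was 2251, 1776 and 1949 in untreated cells and 949, 877 and 918 with doxorubicin, a change of -1.10 (SE 0.10, adjusted p = 1.3e-07). It was 3699, 3257 and 3578 in DMSO and 2276, 1797 and 1938 with nutlin-3, a change of -0.81 (SE 0.10, adjusted p = 1.5e-05). Treated arrays were below their own controls throughout. The nutlin-3 mean of 2003 was close to the untreated mean of 1992, and COL5A2 was higher in DMSO than in untreated cells.

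COL3A1, the single chain of type III collagen of skin and vessel walls, fell more with nutlin-3. Untreated arrays gave 2839, 2639 and 2597 and doxorubicin arrays 1993, 1718 and 2198. DMSO arrays gave 2702, 2186 and 2553 and nutlin-3 arrays 959, 773 and 793. All nutlin-3 arrays lay below every other array. The change was -0.45 with doxorubicin (SE 0.11, adjusted p = 0.0023) and -1.54 with nutlin-3 (SE 0.11, adjusted p = 2.3e-08), a 2.91-fold fall. COL11A1, a chain of the type XI collagen of cartilage fibrils, fell by 0.61 with doxorubicin (SE 0.12, adjusted p = 0.00037), from 4311 ± 365 to 2809.9 ± 153. With nutlin-3 its change was -0.17 (adjusted p = 0.35), and -0.32 and called without nutlin-3 array 1 (adjusted p = 0.039).

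COL1A1, the main chain of type I collagen, was bright on every array. Its signal was 31189, 26694 and 31953 in untreated cells and 37435, 37989 and 32453 with doxorubicin. In DMSO it was 36047, 33622 and 31348, and 37447, 35162 and 34628 with nutlin-3. Doxorubicin arrays lay above untreated ones by a small margin, and nutlin-3 arrays overlapped those of DMSO. COL1A1 was called higher with doxorubicin by 0.26 (SE 0.09, adjusted p = 0.017, 0.0058 to 0.45 over the alternatives). That call was lost without untreated array 2, without doxorubicin array 1 or array 2, under both other scalings and with no filter, and the mean over all its probe sets was -0.16. COL1A2, which encodes the partner chain, lay under the filter, with 5.21, 78.5 and 21.0 in untreated cells, 69.7, 38.6 and 88.0 with doxorubicin, 36.1, 51.7 and 47.7 in DMSO and 39.8, 73.6 and 29.1 with nutlin-3.

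COL2A1, the chain of the type II collagen of cartilage, was dim. It gave 96.1, 108 and 65.3 in untreated cells and 136, 147 and 141 with doxorubicin. It gave 70.2, 61.4 and 74.7 in DMSO and 27.2, 49.2 and 48.1 with nutlin-3. Neither change was called (0.59, adjusted p = 0.058, with doxorubicin; -0.58, adjusted p = 0.11, with nutlin-3), although treated and control arrays did not overlap with either agent. The doxorubicin change of COL2A1 was called in 4 alternatives, among them those without untreated array 2 (0.72, adjusted p = 0.047) and without nutlin-3 array 1 (0.59, adjusted p = 0.044). COL11A2 was called with neither agent on its chosen probe set (change 0.37 with doxorubicin, adjusted p = 0.23). Without untreated array 3 the COL11A2 change was 0.67 (adjusted p = 0.033 by limma), and as the mean of its probe sets 0.97 (adjusted p = 0.0012). Over the 4 chondrocyte markers SOX9, ACAN, COL2A1 and MATN3, all past the filter, the summed signal was 5445 to 7332 in untreated cells, 7997 to 8253 with doxorubicin, 3216 to 3522 in DMSO and 4517 to 4693 with nutlin-3. Most of this sum was SOX9, with means of 5695 in untreated cells, 6473 with doxorubicin, 2654 in DMSO and 4030 with nutlin-3. With doxorubicin MATN3, a cartilage matrix protein, was the 1 marker called, higher by 1.98. With nutlin-3 SOX9 was the 1 marker called, higher by 0.60, and it was lower by 1.09 in DMSO than in untreated cells. In the difference between agents SOX9 was called lower (-0.41), and COL2A1 (1.17) and MATN3 (2.14) higher. The 5 fibroblast markers PDGFRA, THY1, LUM, DCN and COL3A1 summed to 6054 to 7596 in untreated cells, 4140 to 4378 with doxorubicin, 5099 to 6147 in DMSO and 3046 to 4007 with nutlin-3. This sum includes COL3A1, itself a collagen described here, with means of 2480 in DMSO and 842 with nutlin-3. COL3A1 was the 1 fibroblast marker called with nutlin-3, and THY1, LUM and COL3A1 were called lower with doxorubicin. The part of these marker levels in the collagen changes was not tested.

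**Figure D2:**
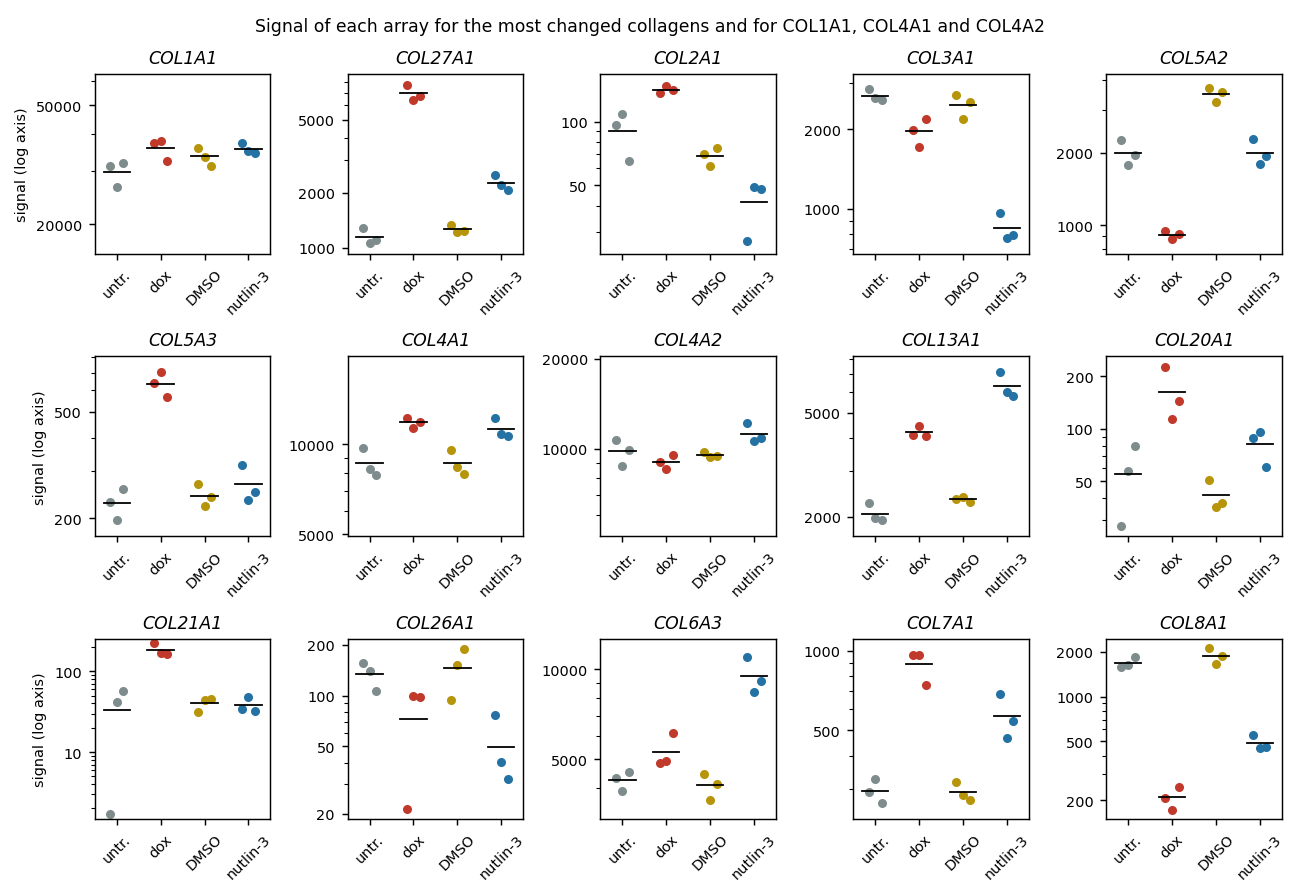
Signal of every array (points) and group mean (bar) on log axes for 15 collagens, namely those called with a log2 change of at least 1 in size with an agent or in the difference between agents, together with COL1A1, COL4A1 and COL4A2. Untreated cells are grey, doxorubicin red, DMSO yellow and nutlin-3 blue; COL27A1 is high in all 3 doxorubicin arrays (7778, 6406 and 6705), and COL21A1 has 1 untreated array at 1.70.

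Of the 4 tested basement membrane collagens, 2 were called higher (50%) and 1 lower (25%) with each agent. Of all genes tested, 30.1% were called higher and 25.6% lower with doxorubicin, and 12.5% and 13.9% with nutlin-3. COL4A1 encodes the chain present in nearly all basement membranes. It gave 9731, 8260.2 and 7916 in untreated cells and 12261, 11355 and 11894 with doxorubicin, and 9580.0, 8374 and 7978 in DMSO and 12266, 10861 and 10699 with nutlin-3. Every treated array was above every array of its control. The rise was 0.46 with doxorubicin (SE 0.09, adjusted p = 0.00046; 0.28 with arrays centred on their medians) and 0.38 with nutlin-3 (SE 0.09, adjusted p = 0.005).

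COL4A2, its partner chain, from the start site 127 bases away, gave 10738, 8784 and 9907 in untreated cells and 9037, 8540.1 and 9551 with doxorubicin. It gave 9745, 9399 and 9493 in DMSO and 12182, 10583 and 10836 with nutlin-3. Doxorubicin and untreated arrays overlapped, while nutlin-3 arrays lay above DMSO arrays. Neither change of COL4A2 was called (-0.11 with doxorubicin, 95% interval -0.29 to 0.07; 0.23 with nutlin-3, 95% interval 0.05 to 0.41). With doxorubicin COL4A2 was called lower with arrays centred on their medians (-0.29) and as the mean of its probe sets (-0.33). With nutlin-3 it was called higher without untreated array 1 or array 2 (adjusted p = 0.045 by limma). The same call was made under a filter at the 60th percentile (adjusted p = 0.049), with only the arrays compared (0.04) and with a replicate block (0.022). With doxorubicin the interval of COL4A2 lay wholly below that of COL4A1, 0.26 to 0.66; the difference between the genes was not tested.

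COL4A5 and COL4A4 encode chains of the mature kidney and lung basement membrane. COL4A5 rose with doxorubicin from 493 ± 65.7 to 736 ± 153, by 0.55 (SE 0.15, adjusted p = 0.0045). With nutlin-3 it rose from 570.4 ± 53.4 to 808 ± 81.0, by 0.49 (SE 0.15, adjusted p = 0.02, 0.0046 to 0.087 over the alternatives). The nutlin-3 call of COL4A5 was lost without DMSO array 2 or array 3 and without nutlin-3 array 1, and both of its calls were lost with arrays centred on their medians. COL4A4 fell by 0.43 with doxorubicin (SE 0.14, adjusted p = 0.014, 0.00097 to 0.089 over the alternatives) and by 0.59 with nutlin-3 (SE 0.14, adjusted p = 0.0039). Its doxorubicin call was lost without untreated array 1 and with doxorubicin array 1 alone, and both calls were lost with the mean over its probe sets. Its signal was 519 ± 97.9 in untreated cells, 377 ± 33.4 with doxorubicin, 607 ± 57.0 in DMSO and 397 ± 40.6 with nutlin-3.

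The other collagens held the largest fall and 7 rises with doxorubicin. Of 15 tested, 7 were called higher and 2 lower with doxorubicin (46.7% and 13.3%, beside 30.1% and 25.6% of all genes tested). With nutlin-3, 4 were called higher and 3 lower (26.7% and 20%, beside 12.5% and 13.9%). COL8A1, a chain of the type VIII collagen network of cornea and vessel walls, fell most. It gave 1592, 1623 and 1839 in untreated cells and 208, 172 and 246 with doxorubicin. It gave 2141, 1648 and 1869 in DMSO and 547, 448 and 454 with nutlin-3. Both treatments left every array far below its controls. The change was -2.93 with doxorubicin (SE 0.13, adjusted p = 1.9e-11), a 7.63-fold fall, and -1.93 with nutlin-3 (SE 0.13, adjusted p = 1.5e-08), a 3.81-fold fall.

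COL13A1, a transmembrane collagen of cell adhesion sites, rose with both agents. Untreated arrays gave 2269, 1975 and 1938 and doxorubicin arrays 4091, 4435 and 4088, a rise of 1.03 (SE 0.09, adjusted p = 5.7e-08). DMSO arrays gave 2342, 2378 and 2289 and nutlin-3 arrays 7147, 6014 and 5808, a rise of 1.42 (SE 0.09, adjusted p = 6.4e-09). The nutlin-3 arrays were the highest of all 12.

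COL7A1, the collagen of the fibrils that anchor the epidermis to the dermis, also rose with both. Its signal was 291, 327 and 265 in untreated cells and 958, 965 and 740.0 with doxorubicin, a rise of 1.54 (SE 0.15, adjusted p = 1.6e-07). It was 316, 283 and 271 in DMSO and 685, 467 and 540.1 with nutlin-3, a rise of 0.91 (SE 0.15, adjusted p = 0.00017). Neither agent's arrays overlapped with those of its control, and the highest nutlin-3 array was below the lowest doxorubicin array.

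The type VI collagens form beaded filaments around cells, and their chains moved unequally. COL6A3 gave 4323, 3933 and 4533 in untreated cells and 4862, 4920.0 and 6111 with doxorubicin. It gave 4484, 3657 and 4136 in DMSO and 10941, 8424 and 9151 with nutlin-3. Nutlin-3 arrays stood clear of all others, and doxorubicin arrays lay just above untreated ones. COL6A3 rose by 1.21 with nutlin-3 (SE 0.11, adjusted p = 3.7e-07) and by 0.31 with doxorubicin (SE 0.11, adjusted p = 0.028, 0.01 to 0.45 over the alternatives). The doxorubicin call was lost without untreated array 2, without doxorubicin array 3 (change 0.20), with doxorubicin array 1 alone (0.19) and with arrays centred on their medians (0.13).

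COL6A1 was called higher with nutlin-3 by 0.31 (SE 0.10, adjusted p = 0.027, 0.012 to 0.91 over the alternatives), from 2583 ± 144 to 3217 ± 322. The nutlin-3 mean was close to the untreated mean of 3199. That call was lost without DMSO array 2 or array 3, without nutlin-3 array 1 or array 2, with arrays centred on their medians and with the mean of its probe sets, and on a probe set named neither _s_at nor _x_at the change was -0.08. With doxorubicin COL6A1 changed by 0.11 and was not called (adjusted p = 0.38). COL6A2 was called with neither agent (0.25 with doxorubicin, adjusted p = 0.18; 0.06 with nutlin-3, adjusted p = 0.84).

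Of the 6 tested fibril-associated collagens, which coat or link fibrils, 3 rose and 1 fell with doxorubicin (50% and 16.7%, beside 30.1% and 25.6% of all genes tested). With nutlin-3, 1 fell (16.7%, beside 13.9%). COL21A1 gave 1.70, 41.4 and 56.3 in untreated cells and 221, 168 and 165 with doxorubicin. It gave 31.8, 44.1 and 46.0 in DMSO and 34.1, 48.4 and 32.6 with nutlin-3. Doxorubicin arrays were above the other 9, which were dim, 1 untreated array most of all. Its means of 33.1 in untreated cells, 40.6 in DMSO and 38.3 with nutlin-3 lay under the filter signal of 49.3. It was thus tested only because it was high with doxorubicin, and its calls are a description. COL21A1 was higher by 2.25 with doxorubicin (SE 0.42, adjusted p = 0.0002) and by 1.63 without untreated array 1. Its size followed the constant added before the logarithm, with 3.30 for a pseudocount of 1 and 1.40 for 64. With nutlin-3 its change was -0.06 (SE 0.42, adjusted p = 0.94; 95% interval -0.94 to 0.82).

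COL20A1, also dim, gave 27.9, 57.4 and 79.5 in untreated cells and 227, 114 and 145 with doxorubicin, a rise of 1.35 (SE 0.32, adjusted p = 0.0017). It gave 51.2, 35.7 and 37.8 in DMSO and 88.4, 95.5 and 60.8 with nutlin-3, and was not called there (change 0.75, adjusted p = 0.098). COL20A1 arrays did not overlap with their controls under either agent. COL9A2, a chain of the type IX collagen on cartilage fibrils, rose by 0.72 with doxorubicin (SE 0.15, adjusted p = 0.00071), from 266 ± 35.7 to 447 ± 26.8. COL9A2 was not called with nutlin-3 (change 0.13, adjusted p = 0.59).

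COL12A1, which lies along type I fibrils, fell by 0.42 with doxorubicin (SE 0.09, adjusted p = 0.0011), from 10255 ± 459.5 to 7653 ± 359.6. It was not called with nutlin-3 (change -0.13, adjusted p = 0.34), but was without nutlin-3 array 1 (-0.26, adjusted p = 0.023). COL16A1 fell by 0.64 with nutlin-3 (SE 0.18, adjusted p = 0.014, 0.00069 to 0.089 over the alternatives), from 2454 ± 566 to 1591 ± 486, with overlapping arrays. That call was lost without DMSO array 1 and without nutlin-3 array 2 or array 3. COL22A1 was called with neither agent on its chosen probe set (0.16 with doxorubicin, 0.15 with nutlin-3). This result turned on the choice of probe set: the highest linear mean would take another one (244 against 237), which was called higher with both agents, by 1.05 and 0.51.

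The multiplexins COL15A1 and COL18A1 are basement membrane zone collagens, and a fragment of COL18A1 is endostatin, an inhibitor of vessel growth. COL18A1 rose by 0.81 with doxorubicin (SE 0.13, adjusted p = 6.3e-05), from 352 ± 69.5 to 625 ± 53. With nutlin-3 its change was 0.28 (SE 0.13, adjusted p = 0.14; 95% interval 0.00 to 0.56), from 382 ± 11.6 to 469 ± 44.8, with arrays that did not overlap. COL15A1 was called with neither agent (0.58 with doxorubicin, adjusted p = 0.12, and 0.14 with nutlin-3, adjusted p = 0.79, by limma). Its means of 46.6 in untreated cells, 38.9 in DMSO and 43.9 with nutlin-3 lay under the filter signal of 49.3. COL15A1 was thus tested only through its doxorubicin arrays, with a mean of 78.4.

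COL26A1 gave 155, 139 and 107 in untreated cells and 21.4, 98.8 and 97.4 with doxorubicin. It gave 94.0, 151 and 189 in DMSO and 76.6, 40.2 and 31.9 with nutlin-3. Treated arrays were below controls in both comparisons, with a wide spread. COL26A1 fell by 1.31 with nutlin-3 (SE 0.39, adjusted p = 0.02, 0.0027 to 0.091 over the alternatives), a call lost without DMSO array 2 or array 3 and without nutlin-3 array 2 or array 3. Its change of -0.91 with doxorubicin was not called (adjusted p = 0.057). That value rested on doxorubicin array 1, at 21.4: it was -0.38 without this array and -1.99 with it alone. The COL26A1 change with doxorubicin was called in 6 of 22 alternatives, among them both other scalings and the removal of doxorubicin array 2 or array 3.

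The agents differed in 14 of the 28 collagens by the test of the difference itself, the doxorubicin change minus the nutlin-3 change. The difference was called higher in 9 (32.1%, beside 21.8% of all genes tested) and lower in 5 (17.9%, beside 17.7%). The median difference was 0.29 over the collagens and 0.07 over all genes. Fibrillar collagens took 5 of the 9 higher calls, which was 55.6% of the fibrillar collagens tested, beside 21.8% of all genes tested. These were COL27A1 (1.76, SE 0.14, adjusted p = 1.1e-07), COL5A3 (1.30, SE 0.21, adjusted p = 0.00012), COL2A1 (1.17, SE 0.36, adjusted p = 0.016), COL3A1 and COL5A1. For COL3A1 the difference of 1.09 (SE 0.16, adjusted p = 4.2e-05) stood beside a deeper fall with nutlin-3. COL21A1 differed by 2.31 (SE 0.59, adjusted p = 0.0049; 1.69 without untreated array 1), but had entered the test only through its doxorubicin arrays. COL8A1 fell further with doxorubicin, by 1.00 (SE 0.19, adjusted p = 0.00046), and COL6A3 rose further with nutlin-3, by 0.90 (SE 0.16, adjusted p = 0.00026). The calls of COL27A1, COL3A1, COL6A3 and COL8A1 held under every alternative tried. That of COL21A1 held in the 21 alternatives that gave it a value, which is no support given how it entered the test.

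The other 9 differences were lost under at least 1 alternative. COL5A3 lost its call on a probe set named neither _s_at nor _x_at (0.71, adjusted p = 0.21), and COL2A1 lost it with arrays centred on their medians and with doxorubicin array 1 alone (0.76 with a pseudocount of 64). COL13A1, at -0.40 (SE 0.13, adjusted p = 0.021), lost it without untreated array 1 or nutlin-3 array 1, under quantile normalization and with the mean of its probe sets. COL7A1, at 0.63 (SE 0.21, adjusted p = 0.024), lost it with centring and without untreated array 3, doxorubicin array 1 or 2, DMSO array 1, or nutlin-3 array 2 or 3. COL18A1, at 0.53 (SE 0.19, adjusted p = 0.034), lost it with centring, with no filter, and without untreated array 2 or 3, doxorubicin array 1, DMSO array 2 or 3, or nutlin-3 array 2 or 3. COL4A2, at -0.34 (SE 0.12, adjusted p = 0.032), lost it under quantile normalization (-0.17), with no filter, with doxorubicin array 1 alone, and without untreated array 1 or 3, doxorubicin array 2, DMSO array 2 or 3, or nutlin-3 array 1.

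The remaining 3 differences were lost under the most alternatives. COL5A1, at 0.49 (SE 0.18, adjusted p = 0.045), lost its call with centring, with no filter and without any 1 array except untreated array 1, doxorubicin array 3 and nutlin-3 array 2. COL9A2, at 0.59 (SE 0.22, adjusted p = 0.04), lost it with centring, with no filter, with doxorubicin array 1 alone and without any 1 array except untreated array 1, doxorubicin array 3 and nutlin-3 array 1. COL11A1, at -0.45 (SE 0.17, adjusted p = 0.048), lost it under 16 of the 22 alternatives, among them the removal of any 1 array except DMSO array 1 and nutlin-3 array 3. The difference was 0.31 for COL5A1 without doxorubicin array 1 and 0.84 with that array alone, and -0.29 for COL11A1 without nutlin-3 array 1. The count of collagens called higher was 5 without untreated array 3, doxorubicin array 1 or nutlin-3 array 3. The count called lower was 2 without untreated array 1 or nutlin-3 array 1, and 3 without untreated array 3, doxorubicin array 2, or DMSO array 2 or 3. Centring gave 4 higher and 7 lower, and quantile normalization 9 higher and 2 lower.

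**Figure D3:**
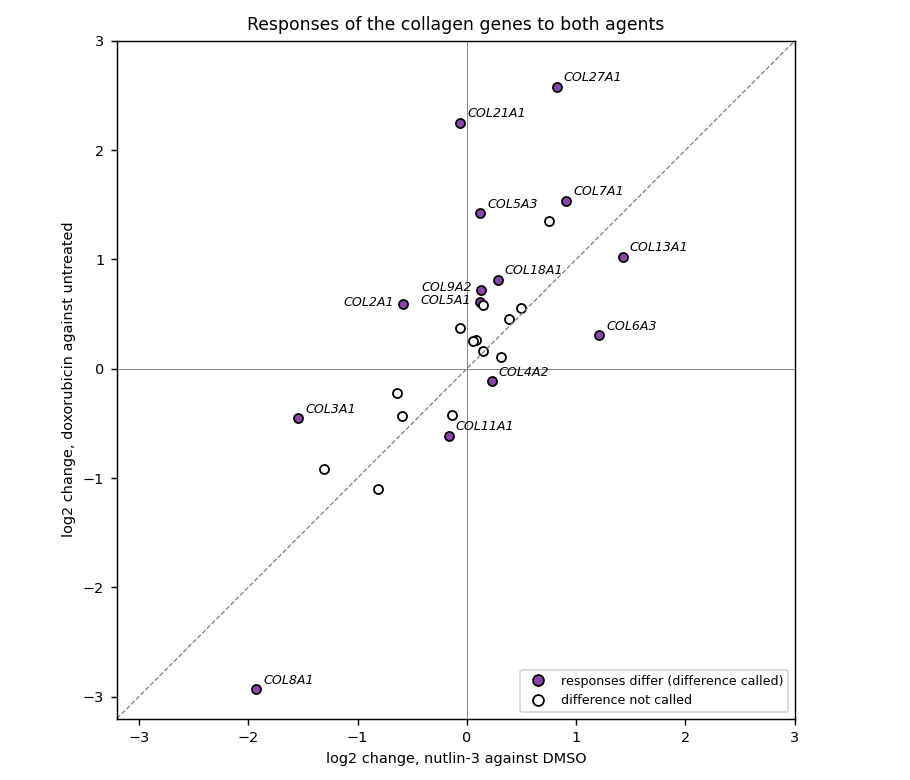
Log2 change of each of the 28 tested collagens with nutlin-3 against DMSO (horizontal) and with doxorubicin against untreated cells (vertical), with the line of equal change dashed. Filled points are the 14 genes whose difference was called; COL21A1 (2.31) and COL27A1 (1.76) lie furthest above the line, and COL8A1 (-1.0) furthest below it.

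The solvent itself was set against no treatment. With DMSO 2 collagens were called higher (7.14%, beside 8.14% of all genes tested) and 3 lower (10.7%, beside 5.98%). This comparison shares its untreated arrays with the doxorubicin comparison and its DMSO arrays with the nutlin-3 comparison. COL5A2 was higher in DMSO by 0.82 (SE 0.10, adjusted p = 0.00011) and COL5A1 by 0.67 (SE 0.13, adjusted p = 0.0029), with no overlap between arrays. Both genes encode chains of type V collagen, and both calls held under every alternative. COL5A1 was 3853, 3139 and 3487 untreated, 6797, 5292 and 4177 with doxorubicin, 5819, 5531 and 5265 in DMSO and 5590.3, 6403 and 6065 with nutlin-3. For COL5A1 the untreated arrays were the lowest group.

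COL22A1 (-0.56, SE 0.17, adjusted p = 0.036), COL9A2 (-0.55, SE 0.15, adjusted p = 0.025) and COL6A1 (-0.31, SE 0.10, adjusted p = 0.048) were called lower in DMSO. The adjusted p reached 0.15, 0.11 and 0.37 over the alternatives, and 0 of the 3 were called with arrays centred on their medians. Quantile normalization gave 3 higher and 2 lower, and centring 3 higher and 0 lower. The count called lower by limma was 0 without untreated array 1 or DMSO array 2 or 3, and 1 without untreated array 2 or 3 or DMSO array 1. COL6A1 also lost its call without doxorubicin array 1 or nutlin-3 array 2 or 3, which enter only through the shared estimate of spread.

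The 43 collagens had 112 single-gene probe sets, of which 59 passed the filter, and 19 genes had more than 1. Probe sets were refitted together, with p-values adjusted over all 32768 probe sets past the filter. Within these 19 genes every probe set gave the same call for 10 with doxorubicin and for 15 with nutlin-3. The 3 probe sets of COL27A1 rose by 2.58, 2.55 and 2.21 with doxorubicin. Both probe sets of COL8A1 fell (-2.93 and -1.94), as did both of COL5A2 (-1.10 and -0.85), and both of COL7A1 rose, by 1.54 and 1.80. With nutlin-3 all 3 probe sets of COL3A1 fell (-1.54, -1.52 and -1.28), and all 3 of COL13A1 rose, by 1.42, 1.28 and 1.49.

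Opposite calls within a gene occurred for 2 collagens, both with doxorubicin. COL1A1 was higher by 0.26 on its chosen probe set (adjusted p = 0.021) and lower on another (-0.57, adjusted p = 0.0032). COL22A1 was higher by 1.05 on one probe set (adjusted p = 9.1e-05) and lower on another (-0.81, adjusted p = 0.018), while the chosen one was not called. For COL4A2 the second probe set fell by 0.55 with doxorubicin (adjusted p = 0.0087). For COL11A2 the second probe set rose by 1.56 (adjusted p = 4.7e-05). The 5 probe sets of COL12A1 gave -0.42, 0.00, -1.04, 0.18 and -0.29 with doxorubicin, of which the first and the third were called. Those of COL5A1 gave 0.61, 0.15 and -0.04, with only the first called.

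**Figure D4:**
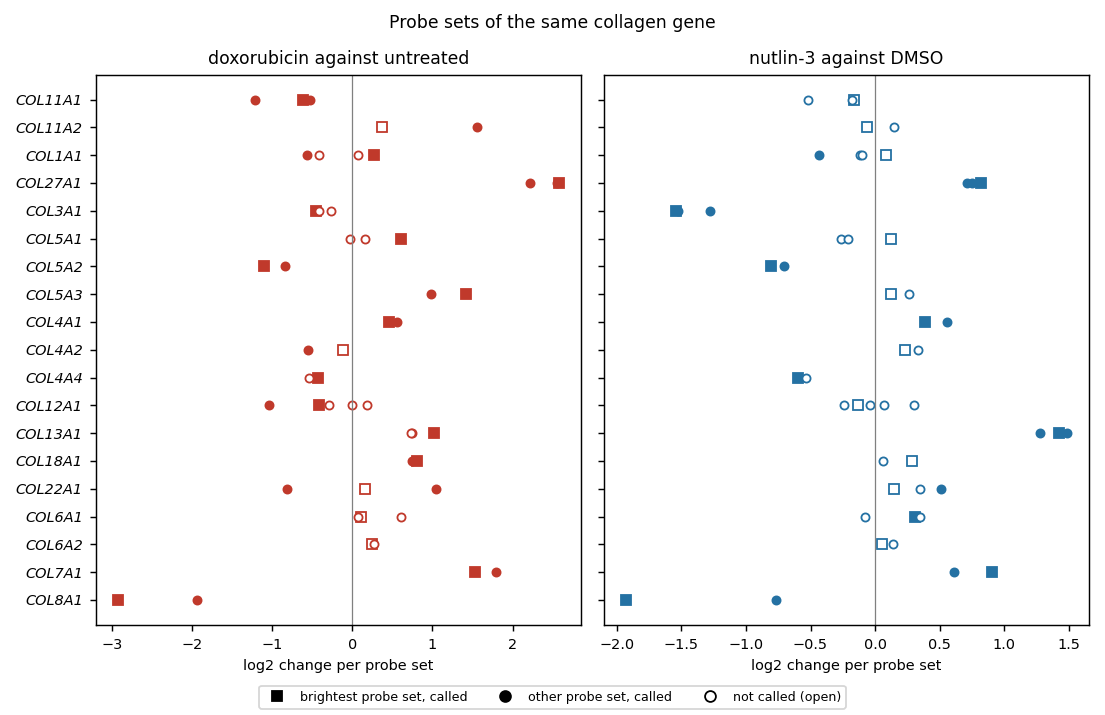
Log2 change of each probe set past the filter for the 19 collagens with more than 1, with doxorubicin against untreated cells (left) and nutlin-3 against DMSO (right). Squares are the probe sets used for the gene and filled symbols were called; COL1A1 and COL22A1 have filled symbols on both sides of 0 on the left, and no gene has on the right.

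The 15 collagens under the filter were COL1A2 and COL24A1 among the fibrillar, COL4A3 and COL4A6 among the basement membrane collagens, and COL6A5, COL6A6, COL8A2, COL9A1, COL9A3, COL10A1, COL14A1, COL19A1, COL23A1, COL25A1 and COL28A1 among the others. Their group means lay between 1.93 and 90.7. In a fit with no filter, in which 23% of 19775 genes were called higher and 17.2% lower with doxorubicin, 2 of the 15 were called higher and 0 lower. These were COL4A6 (1.28, SE 0.35, adjusted p = 0.0086), from 28.2 ± 20.0 to 82.3 ± 5.65, and COL23A1 (0.84, SE 0.30, adjusted p = 0.034), from 34.0 ± 8.15 to 73.0 ± 6.40. With nutlin-3 0 of the 15 were called by limma, where 7.81% of all genes were called higher and 8.82% lower.

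The machinery that makes collagen was followed through 3 lists of other genes: 22 for synthesis in the cell, 19 for maturation outside it and 10 receptors. COLGALT2, KDELR2 and DDR1 had no single-gene probe set, and P4HA3, ADAMTS14, BGN and ITGA1 lay under the filter, which left 44 genes. With doxorubicin 9 of the 44 were called higher (20.5%, beside 30.1% of all genes tested) and 12 lower (27.3%, beside 25.6%), with a median change of 0.05. With nutlin-3, 4 were called higher (9.09%, beside 12.5%) and 16 lower (36.4%, beside 13.9%), with a median of -0.11. Without DMSO array 2, nutlin-3 array 1 or nutlin-3 array 2, the 4 higher calls with nutlin-3 became 2.

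In synthesis, 5 of 19 genes were called higher and 6 lower with doxorubicin (26.3% and 31.6%, beside 30.1% and 25.6% of all genes tested). With nutlin-3, 1 was called higher and 8 lower (5.26% and 42.1%, beside 12.5% and 13.9%). P3H1, a prolyl 3-hydroxylase of procollagen, rose from 1259 ± 91.4 to 3477 ± 176 with doxorubicin, by 1.45 (SE 0.11, adjusted p = 1.1e-08). P3H1 did not pass the test with nutlin-3 (change 0.00, 95% interval -0.24 to 0.23), and the difference between agents was 1.46 (SE 0.16, adjusted p = 2.4e-06). P4HA2, a subunit of the prolyl 4-hydroxylase that stabilises the triple helix, rose by 0.96 with doxorubicin (SE 0.09, adjusted p = 1.3e-07), by 0.56 as the mean of its probe sets, and its change with nutlin-3 was 0.19 (adjusted p = 0.14). The difference for P4HA2 was 0.77 (SE 0.13, adjusted p = 0.00018). SERPINH1, the collagen chaperone HSP47, fell with both agents, by 0.78 with doxorubicin (SE 0.10, adjusted p = 4e-06) and by 0.70 with nutlin-3 (SE 0.10, adjusted p = 3.8e-05). FKBP14, a prolyl isomerase, fell by 0.67 with doxorubicin (SE 0.10, adjusted p = 2.1e-05). P3H3 fell by 0.92 with nutlin-3 (SE 0.17, adjusted p = 0.00051).

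CREB3L1, a transcription factor that drives type I collagen synthesis in osteoblasts, was called in opposite directions. It rose by 0.51 with doxorubicin (SE 0.19, adjusted p = 0.033) and fell by 0.61 with nutlin-3 (SE 0.19, adjusted p = 0.026). The difference was 1.12 (SE 0.27, adjusted p = 0.0035) and held under every alternative. The rise was lost without untreated array 2 or 3 or any doxorubicin array, with doxorubicin array 1 alone, with centring and with no filter. The fall was lost with no filter and without DMSO array 1 or 3 or nutlin-3 array 2 or 3. FKBP10, a chaperone of type I procollagen, fell by 0.39 with doxorubicin (SE 0.14, adjusted p = 0.021), a call lost without untreated array 1 or doxorubicin array 1 (-0.25 without the latter). PLOD2, a lysyl hydroxylase, rose by 0.27 with nutlin-3 (SE 0.09, adjusted p = 0.034), a call lost under both other scalings, with no filter, and without DMSO array 2 or 3 or nutlin-3 array 1 or 2. PLOD2 was also called higher with doxorubicin, by 0.31 (adjusted p = 0.0068 by limma). That call was lost with centring and with the mean of its probe sets.

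In maturation, 3 of 17 genes were called higher and 4 lower with doxorubicin (17.6% and 23.5%, beside 30.1% and 25.6% of all genes tested). With nutlin-3, 2 were called higher and 6 lower (11.8% and 35.3%, beside 12.5% and 13.9%). BMP1, the protease that trims the C-terminal end of procollagen, and its relative TLL2 were higher with doxorubicin, TLL2 by 2.49 (SE 0.31, adjusted p = 2.8e-06; 3.33 and 1.51 with pseudocounts of 1 and 64) and BMP1 by 1.31 (SE 0.21, adjusted p = 4.9e-05; 0.52 and not called as the mean of its probe sets). TLL2 was also higher with nutlin-3, by 1.12 (SE 0.31, adjusted p = 0.012), a call lost without DMSO array 1 or nutlin-3 array 2 and with the mean of its probe sets (0.45). TLL2 was dim, with no value under a filter at the 60th percentile, and its sizes followed the constant added before the logarithm. The proteases that trim the N-terminal end split, with ADAMTS2 higher by 1.02 with doxorubicin (SE 0.26, adjusted p = 0.0035; 0.77 and not called with doxorubicin array 1 alone) and ADAMTS3 lower by 1.63 (SE 0.11, adjusted p = 2.5e-09). ADAMTS3 fell by 0.95 with nutlin-3 as well (SE 0.11, adjusted p = 5.3e-06). ADAMTS2, like TLL2, had no value under a filter at the 60th percentile.

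LOX, the lysyl oxidase that starts the cross-linking of fibrils, fell by 0.64 with doxorubicin (SE 0.11, adjusted p = 0.00014) and by 1.33 with nutlin-3 (SE 0.11, adjusted p = 1.6e-07). Its signal was 2549 ± 192 untreated, 1624 ± 88.7 with doxorubicin, 3102 ± 365 in DMSO and 1228 ± 195 with nutlin-3. The difference for LOX was 0.69 (SE 0.16, adjusted p = 0.0029), and 0.22 and not called as the mean of its probe sets. LUM, the fibril-binding proteoglycan lumican, fell by 0.91 with doxorubicin (SE 0.16, adjusted p = 0.00013). PCOLCE, an enhancer of procollagen trimming, fell by 0.64 with nutlin-3 (SE 0.12, adjusted p = 0.00098). It was also called lower with doxorubicin, by 0.33 (adjusted p = 0.033 by limma), a call lost in 6 of 23 alternatives. FN1, the fibronectin on which fibrils assemble, rose by 0.37 with nutlin-3 (SE 0.10, adjusted p = 0.011), a call lost without DMSO array 2 or nutlin-3 array 1 (0.62 on a probe set named neither _s_at nor _x_at).

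Among 8 tested receptors, 1 was called higher (12.5%) and 2 lower (25%) with each agent, and they were the same 3 genes. Of all genes tested, 30.1% were called higher and 25.6% lower with doxorubicin, and 12.5% and 13.9% with nutlin-3. DDR2, a receptor tyrosine kinase for fibrillar collagen, gave 1212, 987 and 1161 in untreated cells and 177, 84.0 and 138 with doxorubicin, a change of -2.98 (SE 0.18, adjusted p = 7.6e-10). It gave 1286, 1191 and 1245 in DMSO and 866, 618 and 718 with nutlin-3, a change of -0.76 (SE 0.18, adjusted p = 0.0052; -0.41 and not called as the mean of its probe sets). ITGA2, the alpha chain of a collagen-binding integrin, gave 736, 805 and 871 in untreated cells and 1268, 957 and 1318 with doxorubicin, a rise of 0.54 (SE 0.12, adjusted p = 0.001). It gave 559.5, 467 and 511 in DMSO and 3134, 2819.9 and 2964 with nutlin-3, a rise of 2.50 (SE 0.12, adjusted p = 2.7e-10). The controls of ITGA2 also differed, with DMSO lower than untreated cells by 0.63 (adjusted p = 0.0021 by limma), a call held under every alternative. DDR2 fell further with doxorubicin and ITGA2 rose further with nutlin-3, with differences of -2.22 for DDR2 (SE 0.26, adjusted p = 5.1e-06) and -1.97 for ITGA2 (SE 0.17, adjusted p = 1.8e-07). GP6, the collagen receptor of platelets, fell by 1.30 with doxorubicin (SE 0.16, adjusted p = 2.8e-06) and by 0.78 with nutlin-3 (SE 0.16, adjusted p = 0.0015).

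**Figure D5:**
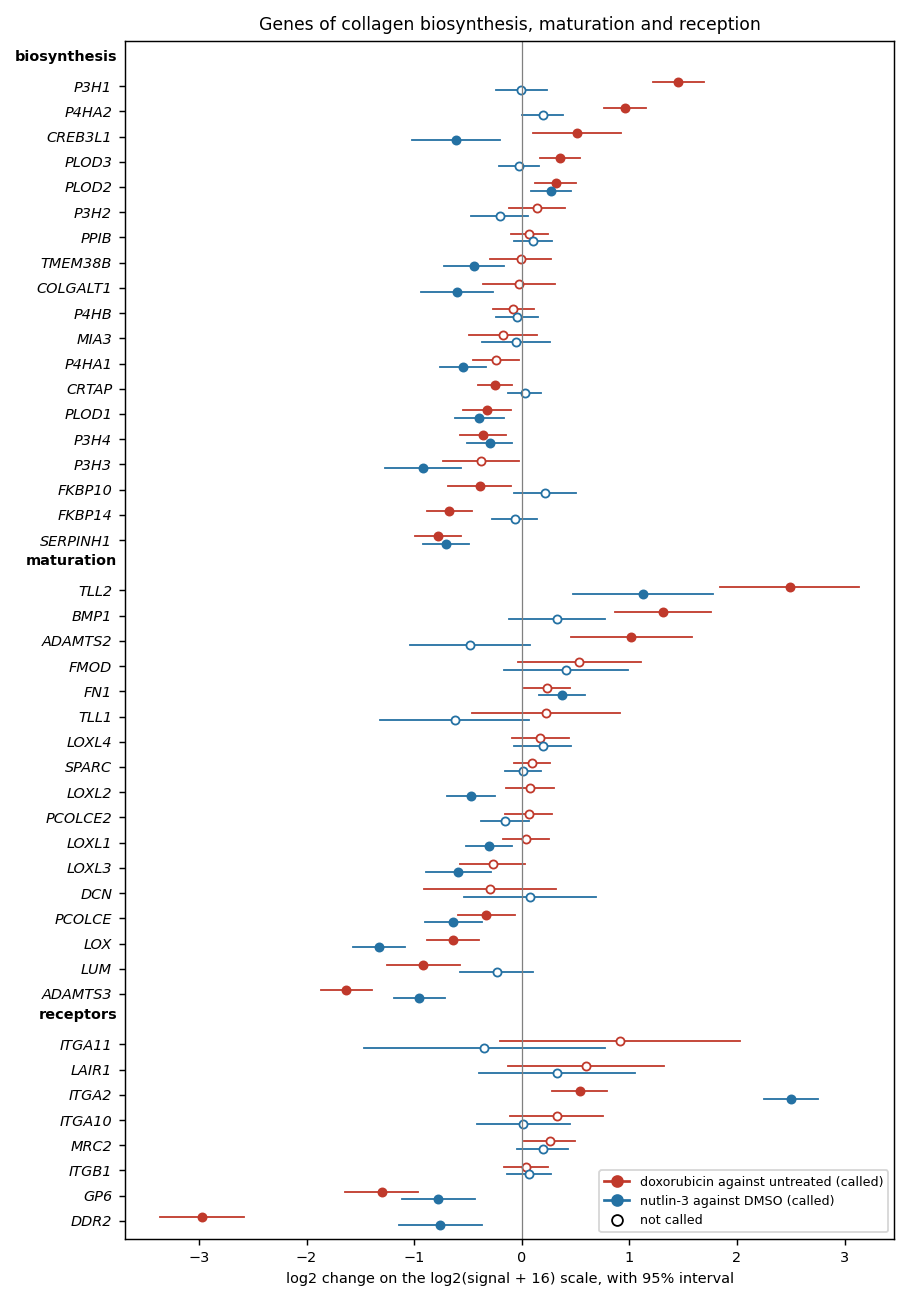
Log2 change of the 44 tested genes of collagen synthesis, maturation and reception with doxorubicin against untreated cells (red) and nutlin-3 against DMSO (blue), with 95% intervals; filled points were called. DDR2 at -2.98 and TLL2 at 2.49 bound the doxorubicin changes, and ITGA2 at 2.50 is the largest rise with nutlin-3. TLL2 was dim, and its size followed the constant added before the logarithm.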

How the data were processed

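Total RNA from 12 U2OS samples had been hybridised to Affymetrix U133 Plus 2.0 arrays after 3' IVT labelling, per the labels' protocols. The authors deposited linear intensity values for 54675 probe sets, made with MAS5 per the submitters' processing notes, whose version is not given in the sources used here. Their scaling was kept. MAS5 intensities of dim probe sets are noisy, so log2(intensity + 16) was used, which understates changes of dim genes.

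Probe sets were named from GEO's platform annotation: 41097 had 1 symbol, 1801 several and 11777 were not listed. Each gene took its single-gene probe set with the highest mean log2 value, and genes under the 40th percentile of all probe sets were left out of tests. All 12 arrays were fitted once in limma 3.58.1 (R 4.3.3; lmFit, eBayes with trend), without a replicate block, and p-values were adjusted by Benjamini-Hochberg over 13673 genes. The fit was tested on simulated data.

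Each agent was compared with its own control, the agents' changes with each other, and DMSO with untreated cells. Alternatives changed the scaling, pseudocount, filter, probe set rule, block and arrays in the fit. Named were every collagen called in a contrast, COL1A1, COL1A2, COL4A1, COL4A2 and COL18A1, and up to 3 rises and 3 falls for each list and agent, with P4HA2. A few collagens and probe sets were named beyond this rule after their values were seen. The members and lists were chosen with earlier results of these data known. An item of a marker list is not reported here.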

Additional observations from a re-analysis of the deposited data

Results flagged for a closer look

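The change with doxorubicin differed from the change with nutlin-3, by the test of the difference in the fit of all 12 arrays, for 14 collagens. The value is the doxorubicin change minus the nutlin-3 change on the log2 scale. It was above 0 for COL21A1 (2.31), COL27A1 (1.76), COL5A3 (1.30), COL2A1 (1.17), COL3A1 (1.09), COL7A1 (0.63), COL9A2 (0.59), COL18A1 (0.53) and COL5A1 (0.49). It was below 0 for COL8A1 (-1.0), COL6A3 (-0.90), COL11A1 (-0.45), COL13A1 (-0.40) and COL4A2 (-0.34). The agents had different controls, untreated cells and DMSO, and COL5A1 and COL9A2 also differed between those controls.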

How the results depend on the processing

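Of the 32 collagen changes called with an agent, 22 were called in the same direction under every one of the 23 settings that could give them a value, and 10 lost the call in at least 1. Of these settings, 12 left out 1 array each, and 1, doxorubicin array 1 as the lone treated array, was chosen after seeing the data. The direction turned for COL1A1 with doxorubicin as the mean of all probe sets (-0.16) and for COL6A1 with nutlin-3 on probe sets other than _x_at and _s_at (-0.079). For the difference between agents, the count called higher was 4 with arrays centred on their medians. The count called lower was 2 with quantile normalization, and 3 with no filter, with the mean of all probe sets and with doxorubicin array 1 alone. For DMSO against untreated, the collagens called lower were 0 with centring and 1 with no filter, and the genes of the 3 other lists were 4 higher and 3 lower with centring. With 1 array left out, collagens called for the difference were 5 to 9 higher and 2 to 5 lower, and those called lower in DMSO 0 to 3. With 1 array left out, genes of the other lists were 2 to 4 higher with nutlin-3, 4 to 7 lower in the difference, and 1 to 3 higher and 3 to 8 lower in DMSO. For doxorubicin, collagens stayed at 12 to 14 higher and 5 to 7 lower, and for nutlin-3 at 5 to 8 and 4 to 8. On dim probe sets the size of a change was loose. Over the alternatives the doxorubicin change ran from 1.40 to 3.30 for COL21A1 and from 0.92 to 1.85 for COL20A1. COL21A1 was tested only because it was high with doxorubicin, so the steady direction of its change is no support.

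The labels do not say whether a replicate number pairs samples. In their deviations from the group means, arrays of the same number correlated at -0.089 to 0.172, and arrays of unlike number at -0.176 to 0.146. With 3 arrays a group these values cannot settle whether samples were paired. With the replicate number as a block, 13 collagens were called higher and 6 lower with doxorubicin, as without it. The block added 2 collagen calls, COL4A2 with nutlin-3 (0.23, adjusted p = 0.022 by limma) and COL5A2 in the difference (-0.29, adjusted p = 0.039).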
